A study of Mus musculus with 6 samples.

Results

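The vessel genes described here are 10 markers of the cells that line and wrap brain blood vessels, measured in mouse hippocampus. They were taken as the rows of the gene table named Cldn5, Pecam1, Flt1, Cdh5, Tek, Pdgfrb, Rgs5, Acta2, Myl9 and Tagln. All 10 were found, each on 1 row, among 15639 rows. The APP/PS1 group comprised 3 libraries labelled with the APP695swe and PS1-dE9 mutations, which model amyloid deposition, and the wild-type (WT) group comprised 3 control libraries, all at 6 months of age. The sources used here give neither strain, sex nor batch, nor the promoter behind each transgene. Nothing in the labels says whether replicates are different mice, and the p-values therefore reflect library-to-library spread that may be technical.

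Brain capillaries are lined by endothelial cells sealed to each other by tight and adherens junctions, and this seal is the basis of the blood-brain barrier. Mural cells sit on the outside: pericytes on capillaries, and contractile smooth muscle cells around arterioles and venules. Endothelial cells secrete PDGF-B, which recruits mural cells through their PDGF receptor, and smooth muscle cells set vessel diameter with an actin and myosin apparatus whose genes are widely controlled by serum response factor (SRF).

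The amyloid precursor protein gene App and the prion protein gene Prnp served as a check of the labels. App reached 153.1, 71.0 and 166.2 FPKM in APP/PS1 replicates 1, 2 and 3, against 69.8, 68.5 and 145.6 FPKM in WT replicates 1, 2 and 3. Prnp was at 471.6, 198.6 and 463.8 FPKM in APP/PS1, against 188.1, 181.5 and 457.2 FPKM in WT. The library labelled APP/PS1 replicate 2 and the library labelled WT replicate 3 thus went against their labels in both genes. Groups are therefore named by label throughout, and results are also given for the 4 libraries without that pair. Library sums lay between 182355 and 185217 FPKM. All 9 hippocampal neuron markers checked, including Prox1 and Wfs1, were at 12.7 FPKM (Prox1 in APP/PS1 replicate 3) or more in every library. FPKM is scaled to transcript length and library size, and the number of reads behind a value is unknown.

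Levels are given in the order replicate 1, 2, 3 of each label. Over the 6 libraries Rgs5 was the most abundant member, at 20.5 ± 2.34 FPKM (SD, n = 6), and its lowest library (16.6 FPKM) lay above the highest library of every other member. Cldn5 came next at 10.96 ± 0.728 FPKM. Acta2 (9.22 ± 3.75), Myl9 (7.58 ± 1.99), Flt1 (6.53 ± 0.391) and Pdgfrb (5.77 ± 0.407 FPKM) followed, and from Cldn5 to Pdgfrb neighbours in this order overlapped in range. All libraries of Pdgfrb lay above those of Cdh5, which was at 4.22 ± 0.387 FPKM. Tagln (3.46 ± 1.42), Tek (2.63 ± 0.220) and Pecam1 (2.41 ± 0.210 FPKM) were lowest and overlapped in this order.

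**Figure D1:**
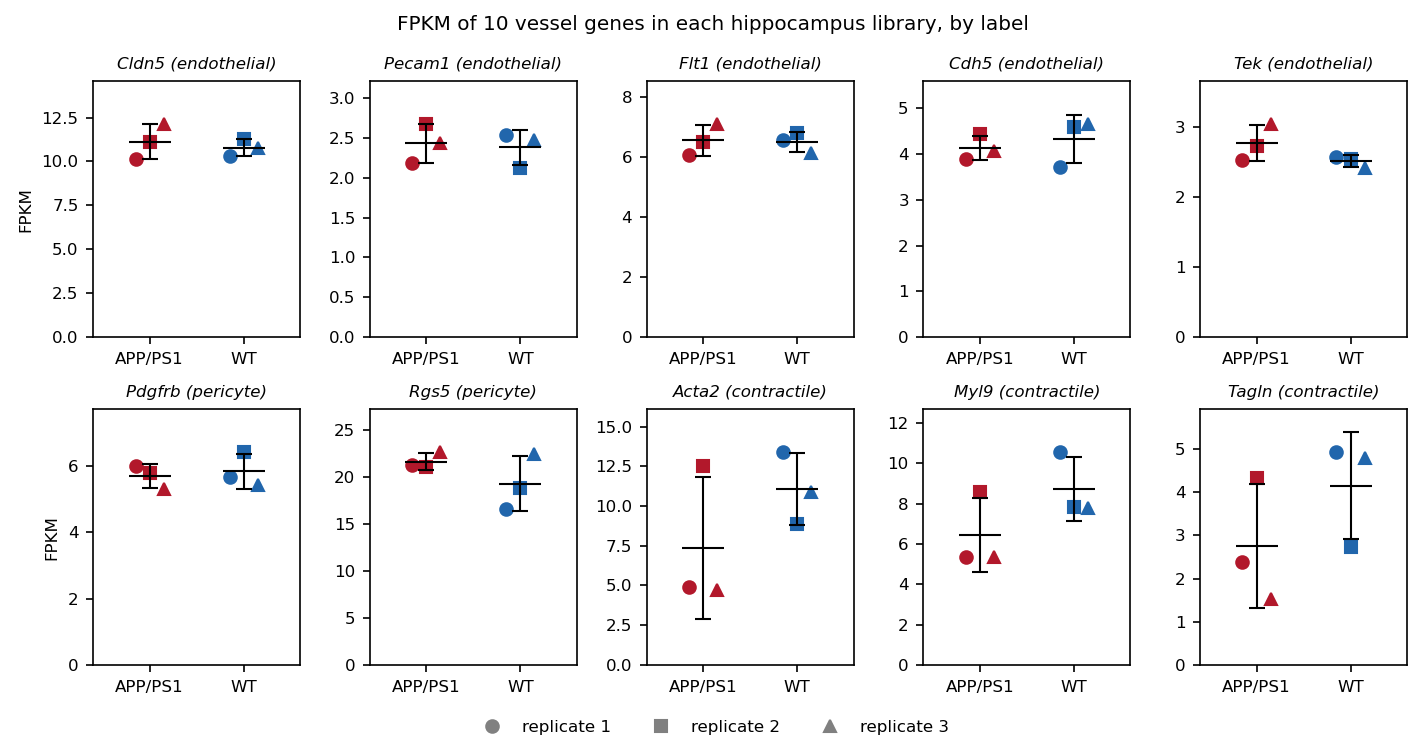
FPKM of the 10 genes in each library, APP/PS1-labelled libraries left in red and WT-labelled libraries right in blue, with the mean and SD of each label (n = 3) in black and the replicate number given by the marker. Endothelial genes, Pdgfrb and Rgs5 lie close together, whereas Acta2, Myl9 and Tagln are low in APP/PS1 replicates 1 and 3 (4.89 and 4.72 FPKM for Acta2) and high in APP/PS1 replicate 2 (12.5 FPKM).

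The endothelial members had nearly the same level under both labels. The whole table was tested with limma on log2(FPKM + 1) for the 13700 genes that reached 1 FPKM in 3 or more libraries, with Benjamini-Hochberg adjustment over all of them and a threshold of 0.05. All 10 members were tested. None passed the threshold in either direction (0 of 10), where 0.0219% of all genes were called, 0.0073% higher and 0.0146% lower. Likewise 0 of 10 had an unadjusted p under 0.05, where 6.69% of all genes did, 2.85% on the higher and 3.83% on the lower side. For 0 of 10 did the libraries separate by label, against 5.38% of all genes on the higher and 6.51% on the lower side.

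Cldn5 encodes claudin-5, the main claudin of endothelial tight junctions in brain. It was at 10.1, 11.1 and 12.1 FPKM in APP/PS1, against 10.3, 11.3 and 10.8 FPKM in WT. The groups overlapped, and the log2 fold change was 0.04 with a 95% interval of -0.14 to 0.21 (limma, adjusted p = 0.961). Cdh5 encodes VE-cadherin, the adherens junction cadherin of endothelium, and was at 3.90, 4.43 and 4.07 FPKM in APP/PS1 against 3.71, 4.59 and 4.65 FPKM in WT. Here WT replicate 1 was the lowest of all libraries, and the log2 fold change was -0.05 (interval -0.26 to 0.17). Pecam1 encodes the adhesion molecule CD31 found at contacts between endothelial cells, and it was at 2.19, 2.67 and 2.44 FPKM in APP/PS1 against 2.54, 2.13 and 2.48 FPKM in WT. Its highest library was APP/PS1 replicate 2, its lowest was WT replicate 2, and the log2 fold change was 0.02 (interval -0.19 to 0.23).

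Flt1 and Tek are the receptor tyrosine kinases of the list. Flt1 encodes VEGF receptor 1, which binds VEGF-A tightly and acts largely as a trap for it. It was at 6.07, 6.50 and 7.09 FPKM in APP/PS1 against 6.57, 6.80 and 6.13 FPKM in WT, a log2 fold change of 0.01 (interval -0.16 to 0.18). The highest and the lowest Flt1 value were both in the APP/PS1-labelled libraries. Tek encodes TIE2, the receptor for angiopoietins that keeps endothelium quiescent. It was at 2.53, 2.73 and 3.03 FPKM in APP/PS1 against 2.57, 2.54 and 2.41 FPKM in WT. APP/PS1 replicates 2 and 3 lay above all WT libraries and APP/PS1 replicate 1 did not, with a log2 fold change of 0.10 (interval -0.08 to 0.28, adjusted p = 0.884 by limma). Across the 5 endothelial members every interval reached no further than 0.28 in either direction on the log2(FPKM + 1) scale, and in the 4 libraries their log2 fold changes ran from -0.04 for Cdh5 to 0.09 for Tek.

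Ligands and sister receptors showed values of the same order. Vegfa, the ligand of Flt1, was at 6.61, 6.29 and 6.76 FPKM in APP/PS1 against 6.64, 5.97 and 5.94 FPKM in WT. Kdr, VEGF receptor 2 and the main signalling receptor for VEGF-A, was at 2.35, 2.25 and 2.19 against 1.87, 2.23 and 2.30 FPKM, less than Flt1 in every library. Angpt1, the activating ligand of TIE2, was at 1.80, 1.74 and 1.88 FPKM in APP/PS1 against 1.55, 2.22 and 1.77 FPKM in WT. Pdgfb, the ligand for the receptor on mural cells, was at 7.24, 7.09 and 6.54 FPKM in APP/PS1 against 7.58, 6.50 and 6.28 FPKM in WT. Of 16 listed VEGF, angiopoietin and PDGF genes 13 were tested, 6 positive and 7 negative, with a median log2 fold change of -0.0079, against -0.00089 over all genes tested. None of the 13 passed the threshold and 0 had an unadjusted p under 0.05 (limma).

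Other endothelial genes were read from lists chosen for cell type. Of 35 identity genes 34 were in the table and 26 were tested, 16 positive and 10 negative, with a median log2 fold change of 0.03. By limma 0 passed, and 1 higher and 1 lower of the 26 had an unadjusted p under 0.05, a share near the 6.69% of all genes. The higher one was Ly6c1, a surface protein of brain endothelium, at 4.80, 6.01 and 8.35 FPKM in APP/PS1 against 4.33, 3.44 and 4.65 FPKM in WT (log2 fold change 0.50, adjusted p = 0.696). The lower one was Klf4, a transcription factor responsive to flow, at 3.44, 3.59 and 2.63 FPKM in APP/PS1 against 4.27, 4.68 and 6.30 FPKM in WT (log2 fold change -0.52, adjusted p = 0.609). For both genes the libraries did not overlap between labels. Of the 26 genes 2 were higher (Ly6c1 and Podxl) and 1 lower (Klf4) without overlap, where 5.38% and 6.51% of all genes were. Klf2, the related flow-responsive factor, was at 6.94, 12.0 and 5.05 FPKM in APP/PS1 against 12.1, 11.5 and 14.2 FPKM in WT, with APP/PS1 replicate 2 among the WT values. Itm2a, a membrane protein gene, was at 10.8, 10.8 and 10.1 FPKM in APP/PS1 against 8.55, 8.19 and 10.5 FPKM in WT. All lists also contain genes that other hippocampal cells express, and Klf2 and Klf4 are not confined to endothelium.

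In the 4 libraries 5 of the 26 identity genes had an unadjusted p under 0.05 on the lower side and 2 on the higher side, where the shares of all genes were 4.98% and 4.2%. Ly6a, which encodes the surface antigen Sca-1, passed the threshold there, where 0.197% of all genes were called, 0.0803% higher and 0.117% lower. It was named after its values were seen. Ly6a was at 1.66, 5.02 and 1.55 FPKM in APP/PS1 against 4.08, 4.18 and 3.68 FPKM in WT, so APP/PS1 replicate 2 was its highest library. Its log2 fold change was -0.98 in the 4 libraries (limma, adjusted p = 0.0440), and -0.53 with all 6 (adjusted p = 0.860). Apold1, an early response gene of endothelium and also chosen after its values were seen, was at 1.79, 5.66 and 1.46 FPKM in APP/PS1 against 5.81, 4.68 and 5.59 FPKM in WT. It did not pass in the 4 libraries (log2 fold change -1.25, limma adjusted p = 0.0614) or in all 6 (-0.83, adjusted p = 0.787).

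Junction genes, transporters and activation genes gave 0 calls by limma. Of 11 junction genes tested 7 were positive, with a median log2 fold change of 0.04, and 0 had an unadjusted p under 0.05. Cldn1, with the smallest p of these, was at 2.64, 3.07 and 2.88 FPKM in APP/PS1 against 2.15, 2.84 and 1.82 FPKM in WT (log2 fold change 0.25, limma adjusted p = 0.787). Cgn was at 1.32, 1.52 and 1.30 against 1.00, 1.31 and 0.835 FPKM in the same order. Tjp1, the scaffold ZO-1, was at 21.4, 21.1 and 21.0 FPKM in APP/PS1 against 20.7, 20.2 and 22.0 FPKM in WT. Ocln, occludin, was at 3.24, 4.14 and 3.83 against 3.65, 3.66 and 4.70 FPKM in the same order. Of 15 blood-brain barrier transport genes tested 7 were positive and 8 negative, with a median of -0.05 in all 6 and 0.03 in the 4 libraries. By limma 1 higher (Tfrc) and 1 lower (Slc2a1) had an unadjusted p under 0.05, where 2.85% and 3.83% of all genes did. In the 4 libraries 2 higher and 2 lower did, where 4.2% and 4.98% of all genes did. Without overlap 1 was higher (Tfrc) and 1 lower (Slc3a2), where 5.38% and 6.51% of all genes were. Tfrc, the transferrin receptor, was at 12.9, 10.8 and 11.4 FPKM in APP/PS1 against 8.73, 9.16 and 9.57 FPKM in WT, without overlap (log2 fold change 0.32, limma adjusted p = 0.485). Slc2a1, the glucose transporter GLUT1, was at 17.2, 19.7 and 16.3 FPKM in APP/PS1 against 23.0, 19.4 and 22.5 FPKM in WT, with an overlap through APP/PS1 replicate 2 (log2 fold change -0.27, adjusted p = 0.653). Slco1a4, an organic anion transporter, was at 5.74, 5.85 and 6.89 FPKM in APP/PS1 against 4.84, 4.48 and 5.97 FPKM in WT. Of 4 activation genes tested 3 were positive and 1 negative, and 0 had an unadjusted p under 0.05. Ackr1, with the smallest p of these, was at 8.42, 9.84 and 11.2 FPKM in APP/PS1 against 1.23, 13.2 and 2.85 FPKM in WT. Its within-label SD on the log2(FPKM + 1) scale was 0.98, larger than in 99.8% of the genes tested. Vcam1, a leukocyte adhesion molecule induced on inflamed endothelium, was at 3.81, 5.07 and 3.61 FPKM in APP/PS1 against 4.61, 3.15 and 4.18 FPKM in WT.

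Pdgfrb and Rgs5 are shared by pericytes and smooth muscle cells. Pdgfrb encodes the PDGF receptor beta through which PDGF-B acts, and it was at 5.99, 5.81 and 5.31 FPKM in APP/PS1 against 5.67, 6.43 and 5.43 FPKM in WT. The groups overlapped widely, and the log2 fold change was -0.03 (interval -0.21 to 0.16, limma adjusted p = 0.974). Rgs5 encodes a regulator that shortens G protein signalling. It was at 21.2, 21.0 and 22.7 FPKM in APP/PS1 against 16.6, 18.9 and 22.4 FPKM in WT, with WT replicate 3 inside the APP/PS1 range. The log2 fold change was 0.17 (interval -0.07 to 0.41, adjusted p = 0.840). In the 4 libraries, where WT replicate 3 was left out, it was 0.30 (interval 0.09 to 0.51, adjusted p = 0.469). Leaving out single libraries gave 0.07 without WT replicate 1 and 0.28 without WT replicate 3.

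Of 23 further pericyte genes 20 were in the table and 15 were tested, 6 positive and 9 negative, with a median log2 fold change of -0.07 and 0 calls by limma. On the lower side 1 of the 15 had an unadjusted p under 0.05, where 3.83% of all genes did. This was Foxc1, a transcription factor needed for mural cells, at 1.68, 2.34 and 1.28 FPKM in APP/PS1 against 2.39, 2.52 and 2.61 FPKM in WT. Its libraries did not overlap, although APP/PS1 replicate 2 lay close to WT. It was the only 1 of the 15 lower without overlap, where 6.51% of all genes were. Slc6a20a, a proline transporter, was at 3.08, 5.42 and 2.24 FPKM in APP/PS1 against 5.32, 4.79 and 4.34 FPKM in WT. Anpep, the aminopeptidase CD13 of pericytes, was at 1.11, 1.34 and 0.781 FPKM in APP/PS1 against 1.56, 1.57 and 1.19 FPKM in WT. Cspg4, the proteoglycan NG2 that oligodendrocyte precursors also make, was at 2.72, 2.88 and 2.62 FPKM in APP/PS1 against 2.92, 3.18 and 2.59 FPKM in WT. These named genes are among the 9 negative ones. Among the 6 positive ones, Abcc9 was at 1.12, 1.34 and 1.14 FPKM in APP/PS1 against 1.01, 1.09 and 1.18 FPKM in WT. Atp13a5 was at 3.08, 3.58 and 2.78 against 2.87, 2.70 and 3.25 FPKM in the same order. In the 4 libraries 4 of the 15 had an unadjusted p under 0.05 on the lower side, where 4.98% of all genes did, and 0 passed the threshold.

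The contractile members Acta2, Myl9 and Tagln varied more between libraries than the other 7 members. The promoters of Acta2 and Myl9 are shown because these genes had a like order of libraries. The RefSeq table of start sites held a window of 300 bases, from 250 before the start to 50 after it, for 6 of the 10 members, Acta2 and Myl9 among them. It held none for Tagln, Pecam1, Cdh5 or Pdgfrb, so whether the promoter of Tagln has such a box was not examined. The available windows were searched on both strands for the CArG box, the element that SRF binds, in its strict form and with a single G or C among its inner A and T letters. Capitals mark the matches, 5′ to 3′ along the gene, at GRCm38.p6 chr19:34255324-34255623 on the minus strand for Acta2 and chr2:156775214-156775513 on the plus strand for Myl9.
Acta2: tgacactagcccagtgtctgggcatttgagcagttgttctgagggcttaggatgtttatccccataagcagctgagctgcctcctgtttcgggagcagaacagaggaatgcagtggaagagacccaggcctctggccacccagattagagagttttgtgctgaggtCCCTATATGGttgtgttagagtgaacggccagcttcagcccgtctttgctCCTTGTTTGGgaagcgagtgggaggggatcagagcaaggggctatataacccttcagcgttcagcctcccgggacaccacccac
Myl9: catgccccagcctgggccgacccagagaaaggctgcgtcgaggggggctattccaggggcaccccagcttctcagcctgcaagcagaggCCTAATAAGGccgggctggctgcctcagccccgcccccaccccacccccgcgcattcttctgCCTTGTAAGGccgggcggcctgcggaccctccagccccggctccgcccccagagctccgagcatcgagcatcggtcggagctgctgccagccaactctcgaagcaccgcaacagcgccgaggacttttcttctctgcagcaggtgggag
Acta2 had 2 boxes with a single G or C, starting 84 and 34 bases before the start site that the table uses. Myl9 had 1 strict box, starting 161 bases before the start, and 1 with a single G or C, starting 99 bases before it. Of 32851 windows of all genes, 1.63% held a strict box, 9.98% held either form and 0.822% held at least 2. Rgs5, Cldn5 and Flt1 had none in their windows and Tek had 1 with a single G or C. Among the smooth muscle contractile genes listed further on, 5 of 23 with a window held either form (21.7%), against 11.3% of all genes and 6 of 22 endothelial identity genes (27.3%), counting any window of a gene. A match is a string of letters and not a measured binding site.

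Acta2 encodes smooth muscle alpha-actin, the actin of the contractile filament. It was at 4.89, 12.5 and 4.72 FPKM in APP/PS1, against 13.4, 8.89 and 10.9 FPKM in WT. APP/PS1 replicates 1 and 3 lay below all WT libraries, and APP/PS1 replicate 2 was second to WT replicate 1. Means were 7.39 ± 4.47 FPKM in APP/PS1 and 11.1 ± 2.26 FPKM in WT (SD, n = 3 each), and the log2 fold change was -0.63 with a standard error of 0.36 (interval -1.52 to 0.26, limma adjusted p = 0.832).

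Myl9 encodes the regulatory light chain of smooth muscle myosin, whose phosphorylation starts contraction. It was at 5.37, 8.56 and 5.37 FPKM in APP/PS1 against 10.6, 7.83 and 7.77 FPKM in WT. The order was alike, with APP/PS1 replicates 1 and 3 lowest, WT replicate 1 highest and APP/PS1 replicate 2 next to it. Means were 6.43 ± 1.84 FPKM in APP/PS1 and 8.72 ± 1.60 FPKM in WT (SD, n = 3 each), and the log2 fold change was -0.40 (interval -0.86 to 0.05, limma adjusted p = 0.787). Tagln encodes transgelin, an actin-binding protein of smooth muscle. It was at 2.39, 4.34 and 1.54 FPKM in APP/PS1 against 4.94, 2.73 and 4.80 FPKM in WT. WT replicate 2 lay close to APP/PS1 replicate 1, and the log2 fold change was -0.49 (interval -1.26 to 0.28, adjusted p = 0.860). In bulk tissue fewer smooth muscle cells and less RNA per cell cannot be told apart.

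The values differed without the pair of libraries that went against their labels. In the 4 libraries the log2 fold change was -1.04 for Acta2 (interval -1.54 to -0.54, limma adjusted p = 0.302), -0.67 for Myl9 (interval -1.02 to -0.31, adjusted p = 0.332) and -0.68 for Tagln (interval -1.42 to 0.06, adjusted p = 0.564). Acta2 and Myl9 on the lower side and Rgs5 on the higher side then had an unadjusted p under 0.05, 3 of 10 members where 9.18% of all genes did, and 0 passed the threshold. The libraries separated by label for 1 member on the higher side, Rgs5, and 3 on the lower side, Acta2, Myl9 and Tagln, where 20.9% and 20.6% of all genes did. Leaving out APP/PS1 replicate 2 alone gave -1.04 for Acta2 (adjusted p = 0.119), the lowest adjusted p of any member in any fit. Without APP/PS1 replicate 3 or 1 the difference of Acta2 was smaller, -0.42 and -0.44. Tagln was at -0.24 when APP/PS1 replicate 3 was left out and at -0.78 when APP/PS1 replicate 2 was, and Myl9 was at -0.27 without WT replicate 1. No fit called these genes.

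**Figure D2:**
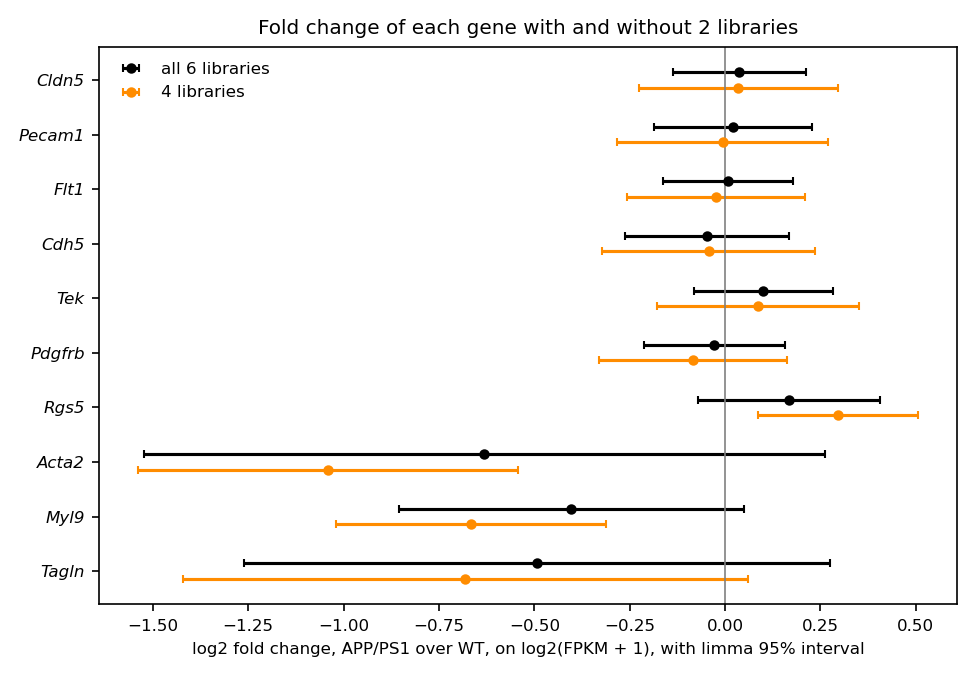
Log2 fold change of APP/PS1 over WT for each gene on log2(FPKM + 1), with the 95% interval of limma, for all 6 libraries in black and for the 4 libraries without APP/PS1 replicate 2 and WT replicate 3 in orange. The 5 endothelial genes and Pdgfrb stay around 0 in both, while Acta2 lies at -0.63 and -1.04 with wide intervals.

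The spread within a label was larger for these 3 genes than for the other members. The within-label SD on the log2(FPKM + 1) scale was 0.53 for Acta2, 0.47 for Tagln and 0.29 for Myl9, larger than in 98.8%, 98.0% and 93.9% of the genes tested. Rgs5 was at 0.15, larger than in 74.2% of genes. In the 4 libraries, a comparison chosen after seeing the data, the SD was 0.27 for Acta2, 0.40 for Tagln and 0.19 for Myl9, larger than in 93.6%, 97.3% and 86.5% of the genes tested. The SD of Acta2 was smaller without the pair that went against their labels, and so was the median of all genes, at 0.08. The 5 endothelial members and Pdgfrb had a larger SD there, as Cldn5 at 0.13 against 0.09 with all 6 libraries. Each SD of the 4 libraries rests on fewer libraries per label. With all 6 libraries the 5 endothelial members and Pdgfrb were between 0.07 for Tek and 0.12 for Cdh5, around the median of all genes, 0.10. Between the lowest and the highest library Acta2 spanned 2.84-fold, Tagln 3.21-fold and Myl9 1.97-fold in FPKM, whereas Cldn5 spanned 1.20-fold and Flt1 1.17-fold.

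**Figure D3:**
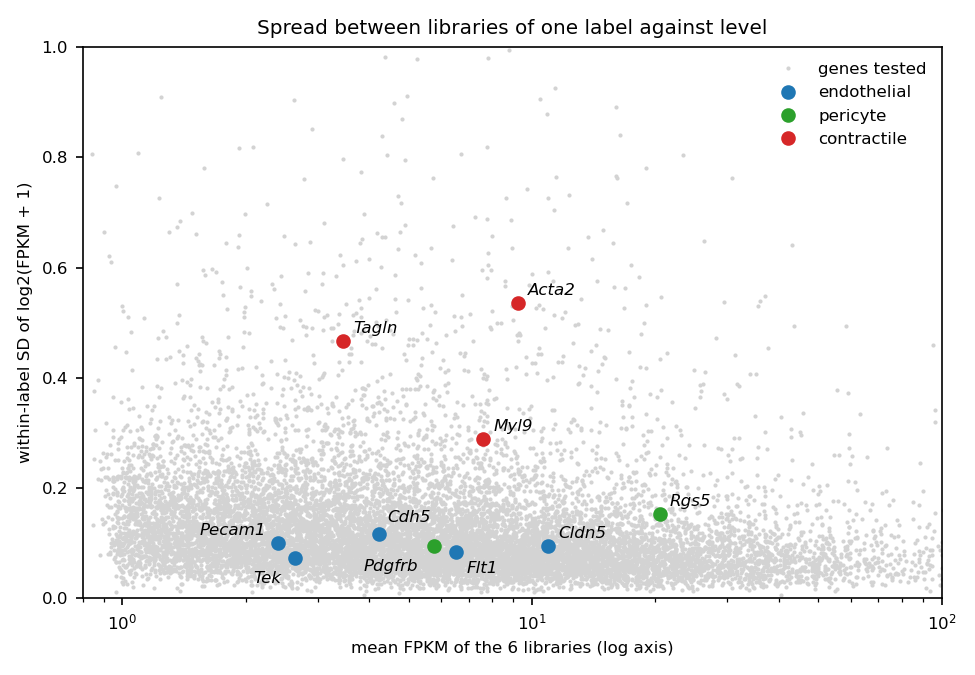
Within-label SD of log2(FPKM + 1) against mean FPKM of the 6 libraries (log axis) for the genes tested in grey, 192 of which lie outside the plotted range, with endothelial members in blue, Pdgfrb and Rgs5 in green and contractile members in red. Acta2, Tagln and Myl9 lie above most genes of their level, and the endothelial members lie within the bulk.

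Within each library the contractile mean was set against the endothelial mean, both as log2(FPKM + 1). The difference was -0.09, 0.60 and -0.40 in APP/PS1 against 0.85, 0.28 and 0.59 in WT, so APP/PS1 replicates 1 and 3 were the libraries with contractile genes below endothelial genes. The ratio of Acta2 to Rgs5 in FPKM was 0.230, 0.596 and 0.208 in APP/PS1 against 0.808, 0.471 and 0.485 in WT. Pdgfrb and Rgs5 stood 1.22, 1.07 and 1.04 above the endothelial mean in APP/PS1, and 0.97, 1.10 and 1.13 above it in WT, a narrower range. These values were chosen as descriptions and carry no test.

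Of 27 further smooth muscle genes 22 were in the table and 14 were tested, 3 positive and 11 negative, with a median log2 fold change of -0.09 and 0 calls by limma. On the lower side 1 of the 14 had an unadjusted p under 0.05, where 3.83% of all genes did. This was Srf, the transcription factor of the CArG box, at 12.9, 13.9 and 12.6 FPKM in APP/PS1 against 16.0, 15.1 and 14.3 FPKM in WT (log2 fold change -0.19, limma adjusted p = 0.665). Without overlap 1 was higher (Tpm1) and 2 were lower (Srf and Cald1), where 5.38% and 6.51% of all genes were. Myh11, the smooth muscle myosin heavy chain, was at 2.15, 3.92 and 1.62 FPKM in APP/PS1 against 4.60, 2.65 and 3.15 FPKM in WT, with APP/PS1 replicates 1 and 3 lowest. Flna, the actin crosslinker filamin A, was at 8.12, 9.93 and 7.98 FPKM in APP/PS1 against 11.2, 9.39 and 9.02 FPKM in WT. Mylk, the kinase that phosphorylates Myl9, was at 2.18, 2.60 and 2.32 FPKM in APP/PS1 against 3.38, 2.38 and 2.60 FPKM in WT. Tpm1, a tropomyosin that neurons also make, was at 17.5, 18.0 and 17.8 against 17.1, 16.7 and 17.3 FPKM in the same order. In the 4 libraries 3 of the 14 had an unadjusted p under 0.05, all lower (Srf, Flna and Myh11), where 4.98% of all genes did, and 0 passed the threshold.

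Paralogs of the members, apart from endothelial receptors such as Kdr, are largely expressed by non-vascular cells. Of 14 tested 0 passed the threshold (limma). On the lower side 1 of the 14 had an unadjusted p under 0.05, where 3.83% of all genes did. This was Rgs16, a relative of Rgs5, at 2.82, 2.62 and 2.31 FPKM in APP/PS1 against 3.61, 3.10 and 3.31 FPKM in WT, without overlap (log2 fold change -0.28, limma adjusted p = 0.639). Actb, the cytoplasmic beta-actin, was at 210.0, 245.2 and 217.6 FPKM in APP/PS1 against 260.4, 228.8 and 243.6 FPKM in WT. Myl12b, a non-muscle regulatory light chain close in sequence to Myl9, was at 75.4, 73.8 and 72.3 FPKM in APP/PS1 against 76.2, 79.8 and 76.6 FPKM in WT, also without overlap. In all 0 of the 14 were higher and 2 lower without overlap, where 5.38% and 6.51% of all genes were. Tagln2 was at 3.27, 3.57 and 2.38 against 3.32, 3.31 and 3.94 FPKM, and Tagln3, the neuronal form, at 81.1, 78.6 and 73.0 against 74.6, 79.8 and 73.8 FPKM. Reads of actin and myosin light chain paralogs could be split between copies by the counting, so levels of Acta2 and Myl9 carry that uncertainty. Rgs4, the neuronal relative of Rgs5, was at 33.5, 34.0 and 32.6 FPKM in APP/PS1 against 40.2, 34.9 and 32.9 FPKM in WT.

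The genes whose profile over the 6 libraries lay closest to the contractile mean were sought among 11857 named genes, by the root mean square difference of log2(FPKM + 1) around each gene's mean. Myh11 was closest, at 0.11. Dnajb1, an inducible heat shock co-chaperone, followed at 0.12, with 15.1, 21.4 and 11.5 FPKM in APP/PS1 against 27.5, 21.0 and 24.6 FPKM in WT. Plekhf1 (0.13), Slc6a20a (0.16) and Itih2 (0.16) came next. For the endothelial mean, Tnrc6a, Zfp90, G6pc3 and Pfas were among the closest, at 0.0085 to 0.024. For the mean of Pdgfrb and Rgs5 they were Bod1l, Kdr, Zfp81, Cpne4 and Acbd3, at 0.010 to 0.018. Many flat genes lie close to a flat profile, and these 2 means spanned only 0.16 and 0.20 between libraries, against 1.14 for the contractile mean.

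Markers of other cells in or beside the tissue also differed between libraries. Summed FPKM of 14 leptomeningeal fibroblast genes, all in the table, was 43.6, 57.8 and 34.5 in APP/PS1 against 48.3, 51.9 and 55.7 in WT, lowest in APP/PS1 replicates 3 and 1 as for Acta2. Of 13 tested 11 were negative, with a median log2 fold change of -0.30 and 0 calls. On the lower side 1 had an unadjusted p under 0.05 (limma), where 3.83% of all genes did. In the 4 libraries 6 of 13 had an unadjusted p under 0.05 on the lower side, where 4.98% of all genes did. Aldh1a2, a retinoic acid enzyme of the meninges, was at 2.10, 4.74 and 1.43 FPKM in APP/PS1 against 4.06, 4.75 and 6.16 FPKM in WT. The summed level of 16 choroid plexus genes, all in the table, was 1386, 1601 and 1319 FPKM in APP/PS1 against 1223, 1402 and 999.6 FPKM in WT, highest in APP/PS1 replicate 2 and lowest in WT replicate 3. Most of that sum was Ttr, the transthyretin gene. Of the 16 genes 15 were positive, with a median log2 fold change of 0.23 (0.10 in the 4 libraries), 0 calls, and 4 with an unadjusted p under 0.05 (limma), all higher and without overlap between labels. Over all genes tested 2.85% had such a p on the higher side, and 5.38% were higher without overlap. Of 8 red cell genes 5 were in the table, and they summed to 424.9, 356.6 and 708.5 FPKM in APP/PS1 against 481.2, 335.3 and 333.5 FPKM in WT, highest in APP/PS1 replicate 3. Perivascular macrophage genes were near the floor of the table: 3 of 7 were in it, summing to 1.51, 1.72 and 1.49 FPKM in APP/PS1 against 2.47, 1.65 and 2.71 FPKM in WT. Astrocyte genes, 12 of 12 in the table, summed to 591.0, 555.3 and 589.9 FPKM in APP/PS1 against 537.8, 566.2 and 589.4 FPKM in WT. By limma 2 of 12 had an unadjusted p under 0.05, both higher, where 2.85% of all genes did on that side. The 9 hippocampal neuron genes summed to 604.2, 603.7 and 591.9 FPKM in APP/PS1 against 625.0, 630.2 and 622.6 FPKM in WT, without overlap between labels. Camk2a, the largest of them, was at 228.7, 254.5 and 239.6 FPKM in APP/PS1 against 259.8, 263.1 and 261.2 FPKM in WT. Snap25, the next largest, went the other way, at 178.8, 169.4 and 173.0 against 161.1, 161.8 and 161.6 FPKM. The sum is thus weighted to a few high genes that differ in direction. Of the 9 genes 8 were negative, with a median log2 fold change of -0.10 and 0 calls. Without overlap 3 were lower and 1 higher, where 6.51% and 5.38% of all genes were. The share of FPKM on 13 mitochondrially encoded genes was 10.3%, 9.70% and 11.3% in APP/PS1 against 9.30%, 8.87% and 9.31% in WT, highest in the libraries where Acta2 was lowest. The part of fibroblast content, blood content, choroid plexus content, neuron content or this share in the values of the members was not tested.

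**Figure D4:**
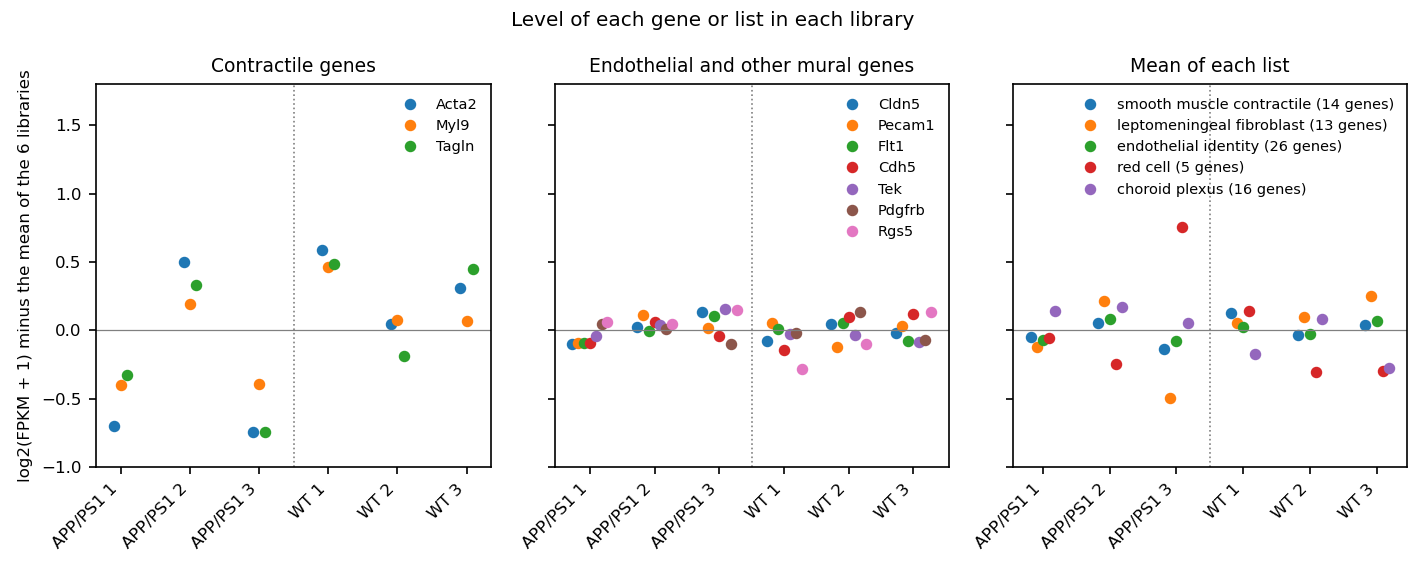
Level in each library as log2(FPKM + 1) minus the mean of the 6 libraries, APP/PS1-labelled libraries left and WT-labelled libraries right of the dotted line, for the 3 contractile members, the other 7 members and the mean of 5 gene lists. Contractile members lie low in APP/PS1 replicates 1 and 3, where the leptomeningeal fibroblast mean is at -0.12 and -0.49, and the other 7 members lie between -0.28 (Rgs5 in WT replicate 1) and 0.15.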

How the data were processed

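Total RNA of mouse hippocampus was sequenced in 6 libraries, 3 per label, built with an Illumina TruSeq kit per the labels' protocols. The gene values deposited by the authors were read as FPKM. The headers carry no unit, which was inferred from the decimals and library sums and from StringTie. Per the submitters' processing notes FastQC, HISAT2, StringTie and the build mm9 were used, with no version or role given. The sources used here do not say how transcripts were joined per gene. No row stayed under 0.529 FPKM in every library, and 21 of 15616 names stood on more than 1 row, none of them a member or listed gene. CircRNA tables were not used.

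The 13700 genes that reached 1 FPKM in 3 or more libraries were fitted with limma 3.58.1 (R 4.3.3, trend and robust) on log2(FPKM + 1), with label as the only term. Fold changes are on that scale and understate low genes. The fit was tested on simulated data. Members and lists were chosen with earlier results of these data known. From each list up to 4 genes with the smallest p, and ligands and paralogs by role, were allowed a name, and not all are printed. Some genes outside this rule are also named, among them Podxl, Tjp1, Ocln, Cspg4, Abcc9, Atp13a5, Tpm1, Ttr and Wfs1. No 2 libraries had the same values. The fit was repeated with no filter or one at 5 FPKM, with 0.1 as pseudocount, after quantile or median-ratio scaling, with limma without trend, array weights or the replicate number as a block, leaving out each library, and in the 4 libraries.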

Additional observations from a re-analysis of the deposited data

How the results depend on the processing

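Members were past the threshold in 0 fits under the 15 alternatives, 146 member values in all, since Tek, Pecam1, Cdh5 and Tagln had too few libraries at 5 FPKM for the strictest filter. Acta2, Myl9, Tagln, Rgs5, Tek and Cdh5 kept their sign in all their fits. Acta2 ranged from -1.04 to -0.42 (adjusted p from 0.119 to 1.00). Cldn5, Pecam1, Flt1 and Pdgfrb, which lie near 0, changed sign in 1 to 4 fits without passing. Among all genes the counts of 1 higher and 2 lower became 2 higher with array weights and 0 lower with the replicate block. Leaving out single libraries gave 1 to 8 higher and 1 to 22 lower, both highest without APP/PS1 replicate 2, and the 4 libraries gave 11 higher and 16 lower. Of the listed genes other than members, 0 passed with all 6 libraries and 1, Ly6a, in the 4 libraries. The contractile minus endothelial difference between labels was -0.53, -0.63 with a pseudocount of 0.1 and -0.81 in the 4 libraries, beside a within-label SD of 0.41 with all 6.

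The labels do not say whether same-numbered libraries were paired. The correlations of their deviations were 0.010, -0.056 and -0.094, beside -0.054 to 0.101 for libraries of different number. Deviations from a label mean cancel out within the label, so these values depend on each other and cannot exclude a pairing. With the replicate block the log2 fold change of Acta2 was the same with an adjusted p of 0.907, and no member passed. The reads behind FPKM are unknown, which limits what can be said of genes near 1 FPKM.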
